A study of Mus musculus with 15 samples.

Results

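Genes of the extracellular matrix and its remodeling enzymes were examined in mouse liver. They were taken from the deposited expression table by the start of their symbols: Col followed by a digit, Lama, Lamb, Lamc, Mmp, Adam, Timp, Lox, Fbln, Fbn, Itga or Itgb. The rule found 33 of the 2545 genes in the table. They are 8 collagens, 1 laminin chain, 8 matrix metalloproteinases, 10 genes of the Adam and Adamts family, 5 genes named as integrins and 1 fibulin. No row began with Lama, Lamc, Timp, Lox or Fbn (0 rows each), so the lysyl oxidases, the tissue inhibitors of metalloproteinases and the fibrillins were not analysed here.

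The RNA came from whole livers of female C57BL/6J mice (C57BL/6 in the labels) that were put on a high-fat diet with 45% of calories from fat at 8 weeks of age and were ovariectomized at 10 weeks. All 5 groups shared this diet and surgery, the vehicle controls included, and each group was treated for 6 weeks. Controls received vehicle (Veh). Estradiol (E2) was given at 5 μg, conjugated estrogens (CE, a mixture of estrogens) at 2.5 mg and bazedoxifene (BZA, a selective estrogen receptor modulator) at 3 mg, each per kg of body weight and day, and the last group received both CE and BZA (CE+BZA). Each group had 3 mice, which are named here by the number in the sample description: Veh 7, 1 and 4, E2 4, 3 and 5, CE 7, 6 and 3, BZA 3, 1 and 4, and CE+BZA 1, 2 and 3. The numbers name mice and do not pair them across groups.

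In the liver, matrix is made mostly by hepatic stellate cells, portal fibroblasts and endothelial cells, and the basement membrane collagens and laminins lie beneath bile ducts and vessels. Matrix metalloproteinases and the Adamts enzymes cut collagens, elastin and proteoglycans, and many of them are made by macrophages, neutrophils or epithelial cells rather than by the cells that lay the matrix down. Integrins are the cell surface receptors that bind matrix, and some of them occur only on leukocytes.

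Many of the members are neighbours in the genome. By the GRCm38 annotation, 12 of the 33 members (36.4%) are on chromosome 9, where 5.86% of the 2168 table genes with a position lie. Of the 183 annotated protein-coding genes that the symbol rule matches, 12.6% are on that chromosome. Mmp13, Mmp12, Mmp3, Mmp8 and Mmp7 share 1 cluster of 427 kb at chr9:7272514-7699585, which holds 9 annotated Mmp genes. Adamts15 and Adamts8 are divergent neighbours 20.1 kb apart. Col4a4 and Col4a3 are transcribed away from each other with 71 bases between them, so that 1 short interval lies upstream of both.

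The upstream sequences of the 5 clustered metalloproteinase genes are shown because these genes are neighbours whose values differed from mouse to mouse, and those of Col8a1 and the Col4a4-Col4a3 interval because these collagens are described below. The sequences are from RefSeq on GRCm38.p6, run 5′ to 3′ on the strand of the named gene, and end at the base before its start site; none overlaps an annotated exon (0 bases). Capitals mark the AP-1 motif TGANTCA and, in Mmp12 alone, an estrogen response element half-site AGGTCA on the opposite strand. The 100-base windows lie at chr9:7272414-7272513 for Mmp13, chr9:7347274-7347373 for Mmp12, chr9:7445722-7445821 for Mmp3, chr9:7558329-7558428 for Mmp8 and chr9:7691990-7692089 for Mmp7, all on the plus strand. Col8a1 has its window at chr16:57754738-57754837 and the Col4a4-Col4a3 interval is at chr1:82586850-82586920, both on the minus strand.
Mmp13: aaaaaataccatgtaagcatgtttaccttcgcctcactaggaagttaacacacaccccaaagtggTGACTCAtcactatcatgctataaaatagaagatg
Mmp12: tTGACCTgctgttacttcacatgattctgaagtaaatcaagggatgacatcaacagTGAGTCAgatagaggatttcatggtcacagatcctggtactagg
Mmp3: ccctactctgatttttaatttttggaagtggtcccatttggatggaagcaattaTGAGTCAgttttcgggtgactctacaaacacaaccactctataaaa
Mmp8: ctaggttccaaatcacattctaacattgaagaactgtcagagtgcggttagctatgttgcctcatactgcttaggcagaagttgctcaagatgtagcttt
Mmp7: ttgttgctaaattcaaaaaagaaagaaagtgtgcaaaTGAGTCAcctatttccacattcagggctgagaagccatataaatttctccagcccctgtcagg
Col8a1: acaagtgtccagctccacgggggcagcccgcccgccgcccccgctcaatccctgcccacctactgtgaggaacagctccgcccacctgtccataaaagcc
Col4a4-Col4a3: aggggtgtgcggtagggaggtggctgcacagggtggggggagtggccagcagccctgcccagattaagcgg

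An AP-1 motif was 35 to 29 bases before the start of Mmp13, 44 to 38 before Mmp12, 46 to 40 before Mmp3 and 63 to 57 before Mmp7. The Mmp8 window held none. Mmp12 and Mmp7 each have 2 RefSeq starts with an entry; the window with the motif is the one shown, and the 250 bases upstream of the other start held no TGANTCA in either gene. Over the 250 bases upstream of every RefSeq start, on both strands, TGANTCA was in 6.75% of 32851 windows and in 4 of the 30 windows of the 24 members that have an entry (13.3%), those 4 being the Mmp genes just named. The half-site AGGTCA, which 14.0% of all windows hold, was in 6 of the 30 (20.0%): Mmp12, Col23a1, Col4a4, Col6a5, Col7a1 and Itgb2l. The full element, GGTCA and its reverse complement TGACC separated by 3 bases, overlaps the half-site wherever an A precedes it and was in 21 windows of the genome (0.0639%) and in 0 of the members' windows. These are matches of letters and not sites of binding.

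The table gives a log2 value for each gene and mouse, centred on the gene's own median in all 15 mice, so a value of 1 is 2 times the median and levels cannot be compared between genes. The table is a selection. All 2545 genes, and therefore all 33 members, had a mean log2 difference from Veh above 1 in size in at least 1 treatment. The p-values and adjusted p-values below were computed within this selection, so they rank genes and are not calibrated rates of error. By annotated symbol, 18% of the 183 protein-coding genes that match the rule were in the table, beside 7.88% of all 21924 protein-coding genes. Low values had been raised to a floor, taken here as 1 normalized count, and 14 of the 33 members (42.4%, beside 41.1% of all genes) had at least 2 mice at that floor. The spacing of the low values puts 1 read at 0.839 to 1.14 normalized counts. By this estimate 7 of these 14 members had under 10 reads in every mouse. Reads were not estimated for the other members, and the total depth per mouse is not in the table. In whole tissue, fewer cells of a type and less RNA per cell cannot be told apart. The identity of the tissue could not be checked from relative values.

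Each treatment was compared with the same 3 Veh mice in a limma model over all 15 mice and 2545 genes. With the rule in the study's methods, a fold change above 2 and a Benjamini-Hochberg adjusted p (FDR) under 0.05, no member was called in any treatment against Veh (0 of 33 in each of the 4 comparisons). The share of all genes called was 0.196% with E2, 0.157% with CE, 0.118% with CE+BZA and 0.0% with BZA. An ordinary linear model with no shrinkage of the variance also called 0 members in each. Members are therefore described at a fold change above 2 and an unadjusted p under 0.05 by limma (two-sided), a looser rule whose share among all genes is printed beside each count.

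**Figure D1:**
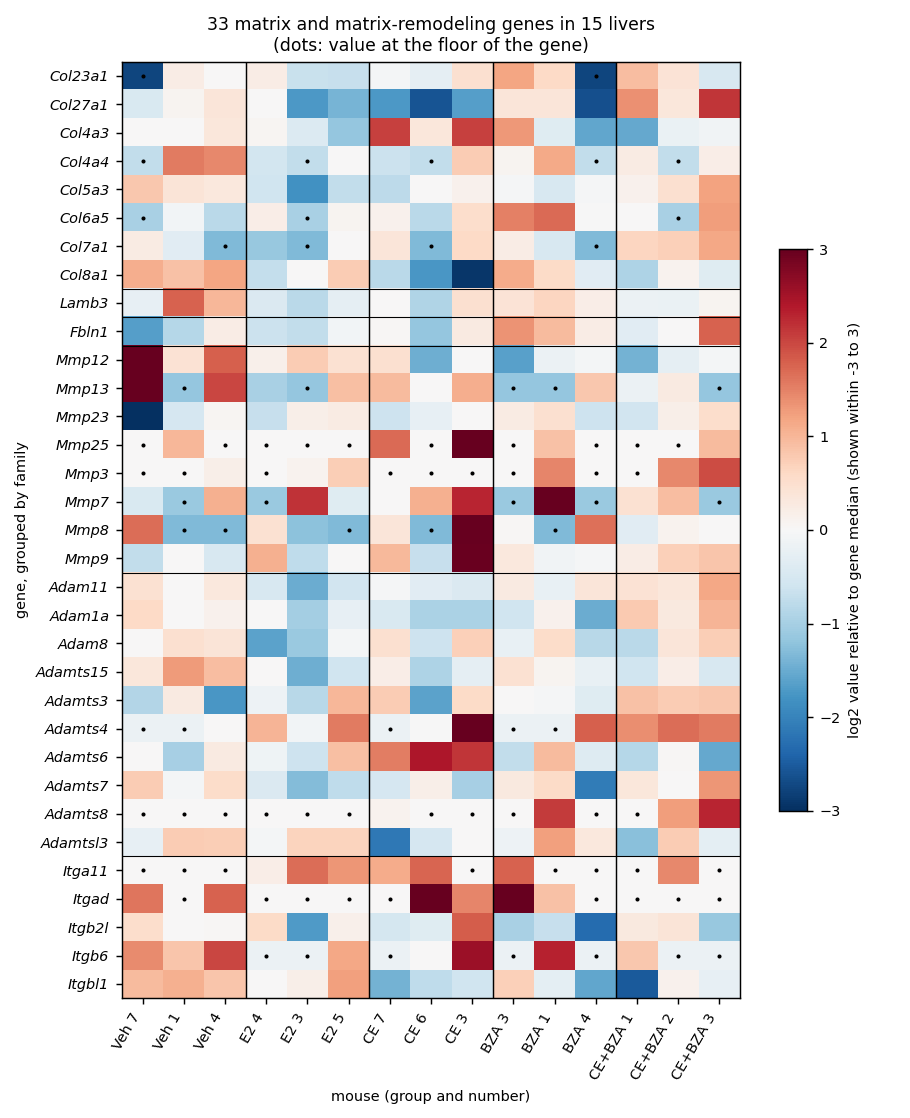
Heat map of the deposited log2 values of the 33 members (rows, grouped by family) in the 15 mice (columns, grouped by treatment), relative to the median of each gene. CE 3 stands out in Mmp8 (5.15), Mmp25 (3.62), Adamts4 (3.33) and Mmp9 (2.97), and CE+BZA 3 holds the highest value of 11 members.

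In E2, the members that passed the looser rule were all lower than in Veh. They were 5 of 33 (15.2%): the laminin chain Lamb3, the macrophage elastase Mmp12, the collagen Col5a3, the proteoglycan-cutting enzyme Adamts15 and Adam11. No member passed as higher (0 of 33). Among all genes, 15.1% passed, 8.61% as lower and 6.52% as higher, so the total share of the members was close to that of the table. The median log2 fold change over the members was −0.48, beside 0.00 over all genes, and 12 of 33 members had a mean above Veh. All 3 E2 mice were below all 3 Veh mice in 7 members (Lamb3, Adam8, Col5a3, Adamts15, Adamts7, Adam11 and Col8a1) and above them in 1, Itga11, beside 12.4% and 10.3% of all genes. E2 3 had the lowest median over the members of any mouse, −0.74, beside 0.00 over all genes, and without it the count of 5 became 2.

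In CE, 2 collagens, 2 enzymes and an integrin-like gene were lower and 1 enzyme was higher. The looser rule took 6 of 33 members (18.2%), beside 18.6% of all genes. Adamts6 was higher, and Col27a1, Mmp12, Adamts15, Itgbl1 and Col8a1 were lower; among all genes 10.1% were higher and 8.45% lower. The median log2 fold change of the members was 0.04, beside 0.06 over all genes. All CE mice were below all Veh mice in 7 members (Col27a1, Adam1a, Col5a3, Adamts15, Adam11, Itgbl1 and Col8a1) and above them in Adamts6, beside 12.3% and 13.0% of all genes. Without CE 6 the looser rule took 9 members, for which no share of all genes is given. Of these, 6 were higher (Col4a3, Mmp9, Adamts3, Mmp8, Adamts6 and Mmp25) and 3 lower (Mmp12, Itgbl1 and Col8a1).

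With BZA, 3 of 33 members passed (9.09%), beside 16.4% of all genes. The collagen Col6a5 and the fibulin Fbln1 were higher and Mmp12 was lower, where 8.92% of all genes were higher and 7.47% lower. The median log2 fold change of the members was −0.05, beside 0.11 over all genes. All BZA mice were below all Veh mice in Mmp12, Col5a3, Itgbl1 and Itgb2l and above them in Col6a5, beside 11.8% and 10.5% of all genes. The count of 3 became 1 without Veh 7 and 5 without BZA 4. It was 0 higher and 3 lower without BZA 1, and 0 higher and 2 lower without BZA 3. The share of all genes in these fits is not given.

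CE+BZA had 6 members past the looser rule (18.2%), beside 21.1% of all genes. Adamts3 and Col7a1 were higher and Mmp12, Adamts15, Itgbl1 and Col8a1 were lower, with 11.6% of all genes higher and 9.55% lower. The members had a median log2 fold change of 0.14, beside 0.08 over all genes. All CE+BZA mice were above all Veh mice in Adamts4, Mmp9, Adamts3 and Col7a1 and below them in Col4a3, Itgb6, Mmp12, Adamts15, Itgbl1 and Col8a1, beside 14.8% and 13.7% of all genes. CE+BZA 3 held the highest value of 11 of the 33 members (33.3%), where it held the highest value of 11% of all genes. Without it the count of 6 became 3, and without CE+BZA 1 it was 3 higher and 1 lower.

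Over all 12 treated mice against Veh, with the 4 treatments weighted equally, 4 of 33 members passed the looser rule and all were lower: Mmp12, Adamts15, Itgbl1 and Col8a1. The share of all genes was 14.4%, of which 7.82% were lower and 6.6% higher, and 0 members were called at the FDR threshold, beside 0.236% of all genes. In no member did all 12 treated mice lie on 1 side of all Veh mice (0 of 33), beside 2.32% of all genes lower and 1.26% higher. The members' median in this comparison was −0.24, beside 0.29 over all genes.

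**Figure D2:**
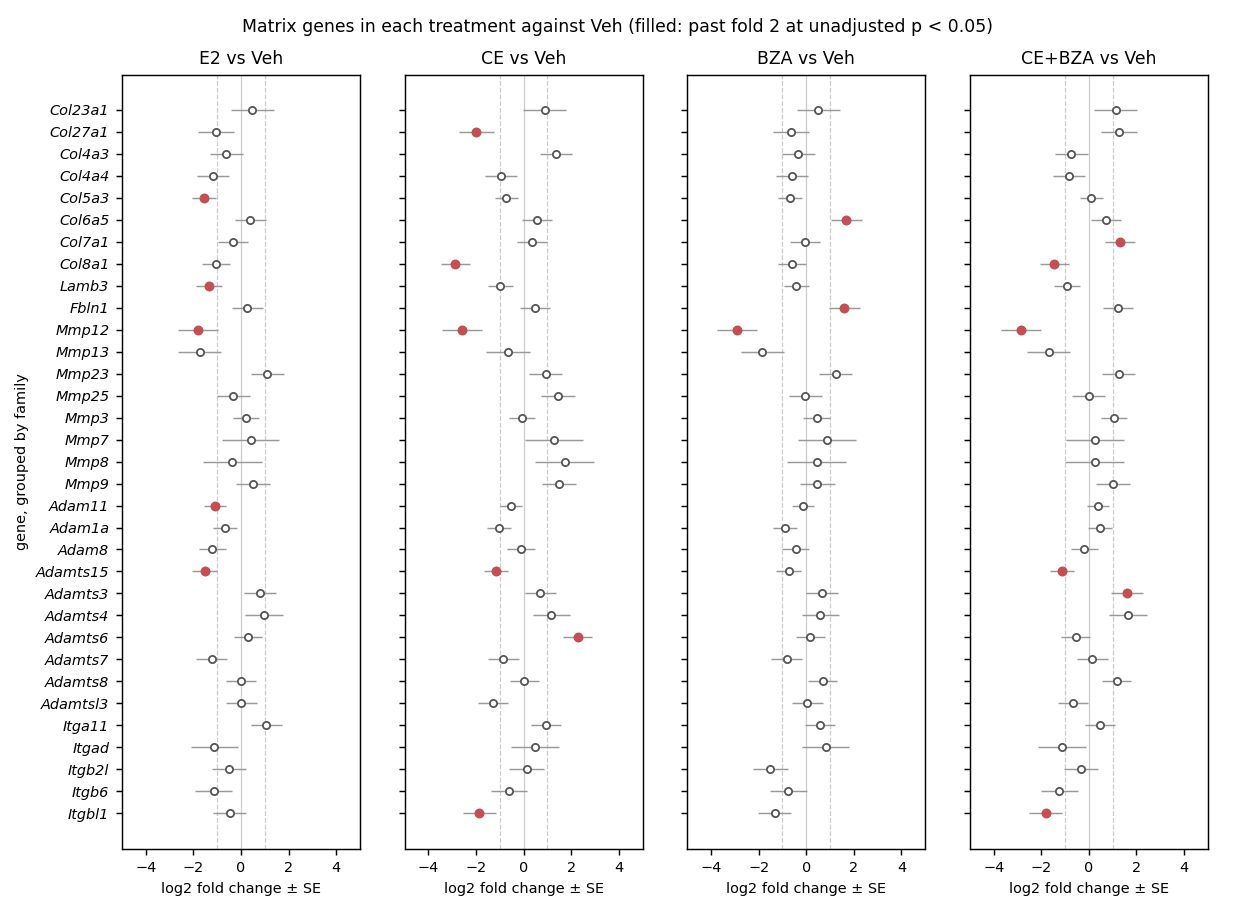
Log2 fold change against Veh of each of the 33 members in E2, CE, BZA and CE+BZA, with the limma standard error. Mmp12 is below −1 in each treatment, Col8a1 has its lowest value, −2.87, in CE, and Adamts6 its highest, 2.27, also in CE.

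Among the collagens, Col8a1 had the lowest FDR of any member against Veh. It encodes a short-chain collagen of vessel walls and activated mesenchymal cells. Its log2 value was 1.09, 0.89 and 1.18 in Veh 7, 1 and 4 and −0.80, −1.74 and −2.91 in CE 7, 6 and 3. All CE mice were below all other mice except CE+BZA 1, which was at −0.92. Against Veh, the CE value was a log2 fold change of −2.87 (SE 0.59, limma FDR 0.0645), and the FDR was 0.0432 without CE 7 and 0.0490 without BZA 4. Col8a1 was −0.71, 0.00 and 0.75 in E2 4, 3 and 5 and −0.92, 0.11 and −0.37 in CE+BZA 1, 2 and 3, all below the Veh mice. In CE+BZA its log2 fold change was −1.45 (FDR 0.220 by limma), and it fell short of the rule without Veh 7, Veh 4 or CE+BZA 1, at −1.43, −1.39 and −1.18. In BZA 3, 1 and 4 it was 1.11, 0.57 and −0.35, which overlapped Veh, and the log2 fold change of −0.61 did not pass. Over all treatments it was −1.49 (SE 0.47, limma FDR 0.174).

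Col27a1, a fibrillar collagen of cartilage and other tissues, was lower than Veh in CE, and its mean in CE+BZA was above that of Veh. Its log2 value in Veh was −0.45, 0.09 and 0.36, and in CE it was −1.72, −2.58 and −1.65, with no overlap. In CE+BZA 1, 2 and 3 it was 1.37, 0.33 and 2.15, of which 0.33 lay within the Veh range. Its log2 fold change was −1.98 in CE (SE 0.75, limma FDR 0.225) and 1.28 in CE+BZA (FDR 0.292 by limma). The value in CE fell short of the rule without Veh 4 (−1.81) or CE 6 (−1.69). In BZA 3, 1 and 4 it was 0.37, 0.36 and −2.64, so that 1 mouse lay apart from the others. In E2 4, 3 and 5 it was 0.00, −1.73 and −1.40, with a log2 fold change of −1.05 that did not pass.

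Col5a3, a chain of the fibril-regulating type V collagen, was 0.80, 0.38 and 0.32 in Veh and −0.59, −1.82 and −0.73 in E2. Its log2 fold change in E2 was −1.55 (SE 0.49, limma FDR 0.215), the lowest FDR of a member in E2. It was also below Veh in every CE mouse (−0.78, 0.00 and 0.12) and every BZA mouse (−0.03, −0.47 and −0.03), with log2 fold changes of −0.72 and −0.68 that did not pass. In CE+BZA it was 0.13, 0.49 and 1.21 and overlapped Veh.

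Col6a5, a chain of the bead-forming type VI collagen, was 1.51, 1.69 and −0.02 in BZA 3, 1 and 4. In Veh it was −0.98 at the floor, −0.08 and −0.81. The log2 fold change of 1.69 (SE 0.64, limma FDR 0.283) fell short of the rule without Veh 7 (1.51), BZA 3 (1.46) or BZA 1 (1.37), and the highest value in any mouse came to 6.37 normalized counts. Col7a1, the collagen of anchoring fibrils, was 0.65, 0.72 and 1.15 in CE+BZA and 0.24, −0.35 and −1.33 in Veh, the last at the floor. Its log2 fold change was 1.32 (SE 0.62, limma FDR 0.235), and it fell short when any of 9 mice was left out, at 0.89 to 1.42. Its highest value was 5.59 normalized counts.

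The other collagens did not pass in any treatment against Veh. Col4a3 and Col4a4 encode chains of the same basement membrane collagen and share the upstream interval shown above. Col4a3 was 2.05, 0.33 and 2.05 in CE and 0.02, 0.00 and 0.34 in Veh (log2 fold change 1.36, FDR 0.284 by limma), while Col4a4 was −0.64, −0.75 and 0.76 in CE and −0.75, 1.56 and 1.43 in Veh (−0.96, FDR 0.394 by limma). Col4a4 had 5 mice at the floor and no more than 4.97 normalized counts in any mouse. Col23a1, a membrane-bound collagen, had log2 fold changes of 0.47 in E2 to 1.12 in CE+BZA, with Veh 7 and BZA 4 at the floor. Over the 8 collagens, the median log2 fold change was 0.41 in CE+BZA, where 5 of the 8 had a mean above Veh. It was −0.83 in E2 (2 of 8 above Veh), −0.46 in BZA (2 of 8) and −0.19 in CE (4 of 8).

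Lamb3, the beta chain of an epithelial laminin, was −0.43, −0.80 and −0.27 in E2 and −0.25, 1.76 and 1.0 in Veh. All E2 mice were below all Veh mice, with E2 5 just below Veh 7. In E2 the log2 fold change was −1.34 (SE 0.53, limma FDR 0.287). It fell short of the rule without Veh 1, Veh 4 or E2 3, at −0.88, −1.26 and −1.19. In CE, BZA and CE+BZA the log2 fold change of Lamb3 was −0.98, −0.42 and −0.92, and none of these passed.

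**Figure D3:**
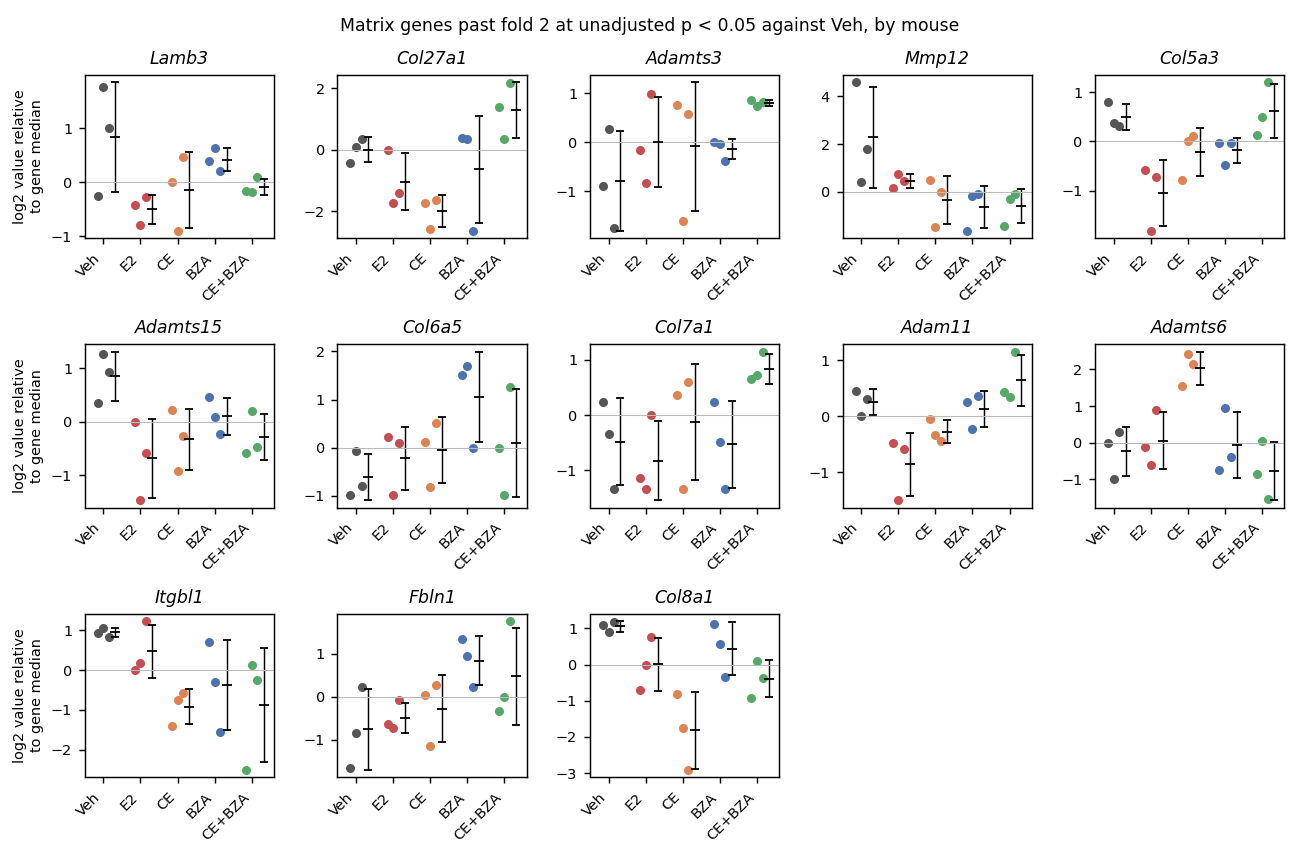
Deposited log2 values of members that passed a fold change of 2 at an unadjusted p under 0.05, 1 point per mouse, by group, on an axis of its own for each gene; black bars give the group mean ± SD of 3 mice. The Veh values of Mmp12 run from 0.43 to 4.6, while the Veh values of Col8a1 lie between 0.89 and 1.18.

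Mmp12, the macrophage elastase, passed the looser rule in each treatment. Its log2 value was 4.6, 0.43 and 1.80 in Veh 7, 1 and 4. The E2 mice were at 0.15, 0.75 and 0.45 and the CE mice at 0.48, −1.46 and 0.00. The BZA mice were at −1.63, −0.17 and −0.07 and the CE+BZA mice at −1.41, −0.28 and −0.07. Veh 7 was far above every other mouse and Veh 1 lay within the E2 values and just under CE 7, whereas all BZA and CE+BZA mice were below all Veh mice. With an SE of 0.84 throughout, the log2 fold change was −2.90 in BZA (FDR 0.198 by limma), −2.86 in CE+BZA (FDR 0.130), −2.60 in CE (FDR 0.200) and −1.82 in E2 (FDR 0.322). Over all treatments it was −2.55 (SE 0.66, limma FDR 0.112).

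The size of the Mmp12 difference depended on Veh 7. Without that mouse the log2 fold change was −0.66 in E2 and −1.44 in CE, and neither passed the looser rule. It was −1.74 in BZA, −1.70 in CE+BZA and −1.38 over all treatments, which still passed it. In E2 it also fell short when any 1 of 8 other mice was left out, and without Veh 1 it was −2.75. Of 13 macrophage and Kupffer cell markers, 3 were in the table (Marco, Gpnmb and Trem2). Their mean log2 value was 0.60, −0.50 and −0.14 in Veh 7, 1 and 4, in the same order as Mmp12. Gpnmb and Trem2 kept this order, but Marco was 0.27, −0.68 and −1.24. The mean of the 3 markers was 0.31 to 1.29 in the BZA mice and −1.35 to 0.06 in the CE+BZA mice. These groups had the lowest Mmp12 means. In CE 3 the marker mean was 1.15 and Mmp12 was 0.00. The part of macrophage content in the Mmp12 values was not tested. An exon of Mmp12 overlaps Mmp1b on the opposite strand, and whether the counting used strand is not given in the sources used here.

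Of the other metalloproteinases, none passed in any treatment against Veh. Mmp13, the main interstitial collagenase of rodents, had its highest values in the same 2 mice as Mmp12, 3.15 in Veh 7 and 2.01 in Veh 4, and was at the floor in Veh 1. Its log2 fold changes were −1.84 in BZA, −1.74 in E2, −1.69 in CE+BZA and −0.66 in CE. Mmp23, a membrane-anchored enzyme, was −3.18 in Veh 7 and between −0.70 and 0.53 in the other 14 mice, and its log2 fold changes ran from 0.93 to 1.25. Mmp3, stromelysin, was at the floor in 9 mice and reached 3.87 normalized counts.

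Several enzyme genes were high in a single mouse. Mmp8, the neutrophil collagenase, was 5.15 in CE 3 and no higher than 1.67 in any other mouse, and its log2 fold change of 1.72 in CE had an SE of 1.25. Mmp9, gelatinase B, was 2.97 in CE 3 beside 0.97 and −0.70 in CE 7 and 6. Mmp25, a membrane-anchored enzyme of leukocytes, was 3.62 in CE 3 and 1.69 in CE 7, and was at the floor in 10 mice. Over 8 metalloproteinases, the median log2 fold change in CE was 1.10, and it was −0.05, 0.44 and 0.25 in E2, BZA and CE+BZA.

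In CE 3, neutrophil markers were also high. Of 12 neutrophil markers, 11 were in the table, of which Mmp8 and Mmp9 are members, and the mean of the other 9 was 6.01 in CE 3. In the other 14 mice it lay between −1.23 and 1.11. CE 3 held the highest value of 6 members (Adamts4, Itgb6, Mmp9, Mmp8, Itgb2l and Mmp25), which is 18.2%, beside 12.3% of all genes. It also had a mean of 3.06 for the 3 platelet markers in the table. The part of blood cell content in these members was not tested. Mmp7, matrilysin, an enzyme of ductal epithelium, was 4.35 in BZA 1 and at most 2.28 elsewhere. The 2 cholangiocyte markers in the table, Krt19 and Krt7, had their highest mean, 2.25, in that same mouse. Their lowest mean of any mouse, −2.15, was in CE 6, where Mmp7 was 1.06. BZA 1 also had the highest mean of any mouse for the 4 mesothelial markers in the table (1.66). The same held for the 2 stellate cell and fibroblast markers (1.47) and the 3 macrophage markers (1.29), but these means rested mainly on 1 gene each. In BZA 1, Acta2 was 2.91 and Lrat 0.03, and Gpnmb was 3.03, Trem2 0.84 and Marco 0.00. Itgad, a leukocyte integrin chain, was 4.91 in BZA 3, in which 7 adipocyte markers had a mean of 3.67. That mean was 0.82 to 0.99 in Veh, mostly from Cfd, which was 3.15, 4.89 and 4.55 in Veh 7, 1 and 4. Adipoq, Plin1 and Lep were 0.00 in every Veh mouse. Itgad was also 3.34 in CE 6, where the adipocyte marker mean was −0.72. None of these relations was tested. With CE 3 and BZA 3 both left out, a choice made after seeing the data, 0 members were called in any comparison at the FDR threshold, and the looser rule took 7 members in CE+BZA, 9 in CE, 6 in E2 and 3 in BZA, beside 23.7%, 16.1%, 16.5% and 14.9% of all genes in the same fit.

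**Figure D4:**
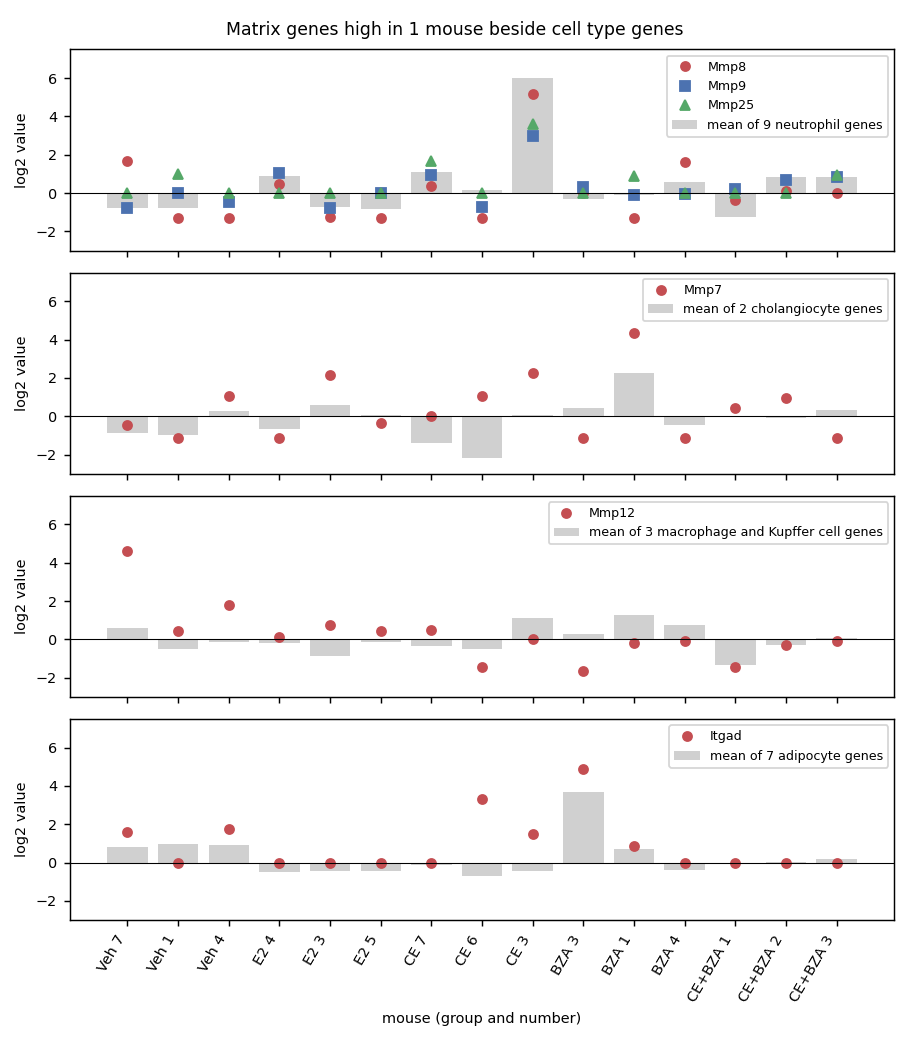
Log2 values of Mmp8, Mmp9, Mmp25, Mmp7, Mmp12 and Itgad (points) in the 15 mice, with the mean log2 value of a cell type's markers in the table as grey bars (neutrophil, cholangiocyte, macrophage or adipocyte). CE 3 is highest in Mmp8 (5.15) and in the mean of 9 neutrophil markers (6.01), and BZA 1 is highest in Mmp7 (4.35) and in the mean of Krt19 and Krt7 (2.25).

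In the Adamts family, Adamts15, which cuts proteoglycans such as versican, was below Veh in most treated mice. Its log2 value was 0.35, 1.27 and 0.92 in Veh, 0.00, −1.47 and −0.59 in E2, 0.21, −0.92 and −0.27 in CE, and −0.59, 0.20 and −0.48 in CE+BZA, and none of these 3 groups overlapped Veh. In BZA it was 0.46, 0.08 and −0.23, and BZA 3 lay above Veh 7. Its log2 fold change passed the looser rule in E2 (−1.54, SE 0.51, FDR 0.225 by limma), CE (−1.17, FDR 0.255) and CE+BZA (−1.14, FDR 0.232), and was −0.74 in BZA. It passed in E2 whichever mouse was left out, but fell short in CE without Veh 1 (−0.96), Veh 4 (−1.13) or CE 6 (−0.88), in CE+BZA without Veh 1, Veh 4, CE+BZA 1 or CE+BZA 3 (−1.10 to −0.93), and over all treatments without Veh 1 (−0.94 in place of −1.15). Its divergent neighbour Adamts8 was at the floor in 11 mice, all Veh and E2 mice among them, and reached 4.84 normalized counts.

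Adamts6, a secreted metalloproteinase, had the largest log2 fold change of the members that passed as higher against Veh, and it passed in CE. It was 1.54, 2.42 and 2.15 in CE and between −1.54 and 0.95 in the other 12 mice, with 0.00, −0.99 and 0.28 in Veh. In CE its log2 fold change was 2.27 (SE 0.61, limma FDR 0.145), and it passed the looser rule whichever mouse was left out. In E2, BZA and CE+BZA it was 0.29, 0.18 and −0.55.

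Adamts3, which removes the amino-terminal propeptide of procollagens, was 0.87, 0.75 and 0.82 in CE+BZA and −0.89, 0.28 and −1.75 in Veh. The combination gave a log2 fold change of 1.6 (SE 0.67, limma FDR 0.223), and it fell short without Veh 7, Veh 4 or any 1 of the CE+BZA mice, at 1.12 to 1.63. The CE+BZA values were close together, but E2 5, at 0.99, was above all of them. Adamts4, an aggrecanase, was also close together in CE+BZA, at 1.40, 1.67 and 1.56, beside −0.17, −0.17 and 0.00 in Veh, of which the first 2 were at the floor. Its log2 fold change of 1.66 had an FDR of 0.237 by limma, and CE 3 was higher still, at 3.33.

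Adam11, a member of the family without protease activity that is known from neurons, was 0.46, 0.00 and 0.31 in Veh and −0.48, −1.50 and −0.58 in E2. In E2 this was a log2 fold change of −1.11 (SE 0.46, limma FDR 0.302), and it fell short without Veh 7 (−1.01), Veh 4 (−1.08) or E2 3 (−0.79). Adamts7, which cuts cartilage oligomeric matrix protein, and Adam8, a leukocyte sheddase, were below Veh in all E2 mice, where limma gave log2 fold changes of −1.24 for Adamts7 (FDR 0.349) and −1.20 for Adam8 (FDR 0.330). Adam1a was −0.46, −0.96 and −0.94 in CE and 0.60, 0.00 and 0.12 in Veh (−1.03, FDR 0.276 by limma). It is known from sperm, and its exons overlap Mapkapk5 on the same strand, so its reads are uncertain. Adamtsl3, a relative without a protease domain, had its lowest log2 fold change, −1.29, in CE (FDR 0.278 by limma), where CE 7 was at −2.14.

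Among the genes named as integrins, Itgbl1 was the only member that passed against Veh. It encodes a secreted protein with integrin beta-like repeats and is not itself a matrix receptor. It was 0.94, 1.06 and 0.83 in Veh, −1.41, −0.76 and −0.59 in CE, and −2.51, 0.13 and −0.24 in CE+BZA, with no overlap. In BZA it was 0.71, −0.30 and −1.55, also all below Veh, and in E2, at 0.00, 0.17 and 1.23, it overlapped Veh. It passed the looser rule in CE (−1.86, SE 0.69, FDR 0.223 by limma), CE+BZA (−1.82, FDR 0.208) and over all treatments (−1.37, FDR 0.213), and was −1.32 in BZA. Without CE+BZA 1 the value in CE+BZA was −0.996, and without CE 7 the value in CE was −1.62, and neither passed. Over all treatments it fell short without Veh 7 (−1.37) or Veh 1 (−1.31).

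The receptor chains themselves did not pass. Itgb6, the epithelial chain that takes part in activating latent TGF-beta, was 1.41, 0.83 and 2.01 in Veh and at the floor in 7 treated mice, and its log2 fold changes ran from −1.25 in CE+BZA to −0.62 in CE. Its highest value was 2.57 in CE 3, and it came to 6.64 normalized counts. Itga11, the collagen receptor chain of fibroblasts, was at the floor in all 3 Veh mice and at 0.19, 1.68 and 1.33 in E2, but it reached only 3.40 normalized counts. Itgb2l was −0.97, −0.68 and −2.32 in BZA and 0.52, 0.00 and 0.03 in Veh (−1.51, FDR 0.303 by limma). Itgad was at the floor in 9 mice, among them all E2 and all CE+BZA mice.

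Fbln1, a glycoprotein of elastic fibers and basement membranes, was 1.35, 0.94 and 0.22 in BZA and −1.66, −0.85 and 0.23 in Veh. The groups overlapped, with BZA 4 just below Veh 4. The log2 fold change was 1.6 in BZA (SE 0.64, limma FDR 0.283) and 1.23 in CE+BZA (FDR 0.248 by limma). In BZA it fell short without Veh 7 (1.15), Veh 1 (1.55), BZA 3 (1.34) or BZA 1 (1.55).

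The combination was also compared with each of its components, to see whether adding BZA to CE moved these genes. Against CE, 5 of 33 members passed the looser rule, beside 14.4% of all genes, and 0 were called at the FDR threshold, beside 0.0393% of all genes. Col27a1, Adam1a and Col8a1 were higher in CE+BZA and Col4a3 and Adamts6 were lower, where 7.11% and 7.31% of all genes were. The log2 difference of CE+BZA from CE was 3.26 for Col27a1 (SE 0.75, limma FDR 0.104) and −2.82 for Adamts6 (SE 0.61, limma FDR 0.0999). For both genes no CE+BZA mouse overlapped a CE mouse. By limma the difference was −2.09 for Col4a3 (FDR 0.216), 1.49 for Adam1a (FDR 0.222) and 1.42 for Col8a1 (FDR 0.294). That of Col8a1 fell short without CE 3 (0.88), CE+BZA 2 (1.17) or CE+BZA 3 (1.41). Without CE 6, 3 members passed as higher and 4 as lower. Over the families, 7 of 8 collagens and 8 of 10 Adam family genes had a higher mean in CE+BZA than in CE, as had 2 of 8 metalloproteinases. Among all genes 49.3% had.

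Against BZA, CE+BZA had 3 members past the looser rule, all higher, beside 8.76% of all genes, of which 4.32% were higher and 4.44% lower. Col27a1 had a log2 difference of 1.92, Adam1a of 1.35 and Col7a1 of 1.37, each with an FDR of 0.540 to 0.546 by limma. No member was called at the FDR threshold (0 of 33), as was no gene of the table (0.0%). Without BZA 4, which had the lowest value of Col27a1 and of Adam1a, the differences were 0.91 and 0.93 and no longer passed. In that fit 0 members were higher and 2, Itgad and Col6a5, were lower. Without CE+BZA 3 the differences of Col27a1 and Adam1a were 1.48 and 1.19 and fell short as well. There, 0 members were higher and 1, Col6a5, was lower. The share of all genes in these fits is not given. Col7a1 fell short when any 1 of BZA 1, BZA 4 or the CE+BZA mice was left out, at 0.97 to 1.47.

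Other genes of the matrix, which the symbol rule does not take, were read from a list of 110 glycoproteins, proteoglycans, growth factor regulators and collagen-processing enzymes. Of these, 20 were in the table, and 0 were called at the FDR threshold in any comparison with Veh by limma. By the looser rule 1 of 20 passed in E2, as lower; 2 were higher and 3 lower in CE, 2 higher and 1 lower in BZA, and 3 higher and 1 lower in CE+BZA. Either way, the looser rule took 15.1% of all genes in E2, 16.4% in BZA, 18.6% in CE and 21.1% in CE+BZA. Vtn, vitronectin, a plasma protein made by hepatocytes, had log2 fold changes of 1.12 in CE+BZA, 1.03 in BZA and 1.01 in CE. Postn, periostin, a matricellular protein of activated mesenchymal cells, was lower in BZA (−1.34) and in CE+BZA (−1.69, FDR 0.174 by limma). Omd, the proteoglycan osteomodulin, was lower in E2 (−2.03) and CE (−1.81). The other genes that passed were Sdc4 (1.02), Thbs3 (−1.65) and Ecm2 (−1.30) in CE, Nov (1.59) in BZA, and Wisp2 (2.15) and Spon1 (1.68) in CE+BZA.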

How the data were processed

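The authors mapped RNA-seq reads with TopHat, counted them per gene in StrandNGS 3.1, partial reads included, and applied the DESeq normalization. The submitters' notes list CASAVA 1.8.2, TopHat2 0.5 and the builds mm10 and hg19. The deposited values are log2 values centred on each gene's median in the 15 mice (0 in all 2545 genes), and low values sit at a floor. The study's heat map is stated to hold genes past a fold change of 2 and p of 0.05 against Veh; no source used here says whether the table was made by that rule, which 1264 of its 2545 genes met in at least 1 treatment in the limma fit. The labels describe a stranded kit, reads from both ends and 2 samples per group, whereas the study's methods give single-end reads and 3 mice; 15 mice were present, no pair of the 105 had identical values (0 pairs), and 0 columns were left unmatched. Each mouse was a separate animal. Strand use in the counting is not given in the sources used here.

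The log2 values were fitted as deposited, without pseudocount or filter, with lmFit and eBayes of limma 3.58.1 (R 4.3.3), with 5 groups, 10 residual and 6.69 prior degrees of freedom. Contrasts were each treatment and the mean of all treatments against Veh, and CE+BZA against CE and BZA. The p-values are two-sided. Those printed were adjusted (FDR) by Benjamini-Hochberg over all 2545 genes, which are the selected genes of the table, so neither p nor FDR is calibrated. Interaction was the effect of CE in the presence of BZA minus its effect alone. The fit was tested on simulated data in which 200 of 2545 genes were shifted in CE against Veh. The rule of fold change and FDR recovered 0 of the 200 at a log2 shift of 1, 73 at 2 and 157 at 3. A count of 0 called members therefore does not show that no member changed by a log2 value of 1. Python 3.11.15 (pandas 2.3.3, numpy 2.4.6 and matplotlib 3.10.9) made the tables and plots. Positions came from GENCODE on GRCm38 and upstream sequences from RefSeq on GRCm38.p6, by symbol; 9 of the 33 members had no upstream entry. Exons of 10 members overlap another gene, on the same strand in 3 (Adam1a, Col7a1 and Itgad).

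Every member was named. Members with a fold change above 2 and an unadjusted p under 0.05 against Veh were given by mouse in Veh and the passing groups. Their values in the remaining groups were given for some of these members only. Values of other members were added after they were seen. Matrix genes outside the symbol rule were named if they passed the same rule against Veh. The members and lists were chosen with earlier results of these data known. Alternatives were quantile normalization, median centring, a filter keeping genes with fewer than 2 floor mice, a replicate block, a trend of variance on mean, no shrinkage, the compared groups alone and leaving out each mouse.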

Additional observations from a re-analysis of the deposited data

Results flagged for a closer look

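In 5 members the effect of CE went in opposite directions without and with BZA: every CE mouse was below the Veh mean and every CE+BZA mouse was above the BZA mean. These were 15.2% of the 33 members, beside 5.54% of all 2545 genes with this pattern; the opposite pattern was in 0 members and 6.05% of all genes. The effect of CE with BZA minus its effect without BZA was 3.90 for Col27a1 on the log2 scale (FDR 0.206 by limma). It was 2.38 for Adam1a, 1.81 for Adamts7, 1.51 for Col5a3 and 1.05 for Adam11, of which Adam1a and Col5a3 had an unadjusted p under 0.05. No member passed an FDR of 0.05 for this difference (0 of 33 by limma), beside 3 of all 2545 genes. At an unadjusted p under 0.05 by limma there were 6 members, beside 12.3% of all genes. For Col27a1 the CE mice were −1.72, −2.58 and −1.65 from the Veh mean and the CE+BZA mice 2.00, 0.96 and 2.79 from the BZA mean. BZA 4 lowered the BZA mean of Col27a1, Adam1a and Adamts7, at −2.64, −1.48 and −2.09. Without BZA 4 the value was 2.90 for Col27a1 and 0.96 for Adamts7, neither of which then had every CE+BZA mouse above the BZA mean, while Adam1a (1.96), Col5a3 and Adam11 kept the pattern. Leaving out BZA 3, BZA 1 or any 1 Veh mouse kept it in all 5. Leaving out a CE or CE+BZA mouse could not break it, because the remaining mice of that group would still meet it. The check was chosen after seeing the data. The other members with an unadjusted p under 0.05 were Adamts6 (−3.0), Mmp12 (2.64) and Col8a1 (2.03), in which the mice did not all move in opposite ways.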

How the results depend on the processing

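No member was called at the FDR threshold as deposited, while some alternatives called 1. Quantile normalization and keeping only genes with fewer than 2 floor mice each called 1 member in CE against Veh (Col8a1, FDR 0.0465 and 0.0343 by limma) and 1 in CE+BZA against CE (Col27a1, FDR 0.0264, and Adamts6, FDR 0.0462, by limma). Leaving out 1 mouse at a time gave 0 to 1 in CE against Veh and 0 in the other comparisons. At a fold change of 2 and an unadjusted p, quantile normalization moved the count from 3 to 5 in BZA (2 higher and 3 lower, from 2 and 1) and from 4 to 7 over all treatments. Leaving out 1 mouse at a time gave 2 to 7 in E2, 5 to 9 in CE, 1 to 5 in BZA, 3 to 8 in CE+BZA, 4 to 6 over all treatments, 4 to 7 for CE+BZA against CE and 1 to 4 against BZA. The share of all genes passing in each of these settings is not given here, so the counts cannot be read against the whole table. Over 32 fold changes of single members under 23 settings, 733 values in all, 0 reversed, 636 stayed on their side of the rule and 97 fell short of it. No scaling moved the median of all genes by over 0.1.

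Same-numbered mice of different groups did not deviate together (r from −0.049 to 0.098 in 13 pairs, and 2 mice correlated best with a mouse of their own number), so the numbers gave no pairing. With a replicate block the count became 3 in CE+BZA against Veh (6 without it), with 0 higher, and 1 in CE+BZA against BZA (3 without it); 3 of 6 were higher in CE in place of 1 of 6.

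The depth per mouse is unknown, and 3 mice per group limit the precision. In 7 of the 14 members with at least 2 mice at the floor, every mouse was under 10 estimated reads. Reads were not estimated for the other members.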
